A study of Mus musculus with 24 samples.

Results

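The RNA of callosal projection neurons was compared with that of corticothalamic projection neurons, both sorted from the mouse cortex at embryonic day 16 (E16). An entry of the expression table was taken into the comparison when it had a value of 1 or more in either group, which held for 13200 of 32310 entries, and its difference was the log2(FPKM + 1) of callosal minus that of corticothalamic neurons. FPKM stands for fragments divided by transcript length and by the mapped fragments of a library, so levels of different genes can be set side by side. A positive difference is a higher level in callosal neurons, a negative one a higher level in corticothalamic neurons, and 1 unit is a 2-fold change on the FPKM + 1 scale, which understates the change of genes with low values. Where a gene is followed by a pair of levels, the type with the higher level comes first, and the signed difference follows.

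The study sorted 3 kinds of cortical projection neuron by FACS from CD1 mice, an outbred strain, at E15, E16, E18 and postnatal day 1 (P1), with 2 poly(A)-selected RNA-seq libraries for each of the 12 groups. No genotype, transgene or treatment is recorded, and by the labels both E16 groups came from CD1 embryos of the same age and differ in the neuron type sorted. The levels of the third type, subcerebral neurons, are given for orientation, and its columns also enter the spread of the model fitted over the stages. Each group has 1 pooled value per gene over its 2 libraries, so the E16 comparison, which draws on 4 libraries, has values and no test, SD or n. The sources used here give neither the markers of the sort nor whether the paired libraries of a group stem from different animals.

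Callosal neurons send their axons through the corpus callosum to the opposite side of the cortex and lie in the upper layers and in layer V. Corticothalamic neurons lie mainly in layer VI, are born earlier, and send their axons to the thalamus. The types are known to be kept apart by transcription factors that act against each other's programs, among them Tbr1, Sox5 and Fezf2 on the deep-layer side.

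Levels are given first for 3 marker genes, and each was higher in the type it marks. The markers were chosen with earlier results of these data known and are among the largest E16 differences. Their sides are therefore no independent check of the labels. Pou3f1, a POU-domain transcription factor, was at 52.3 FPKM in callosal, 33.9 in subcerebral and 2.73 in corticothalamic neurons at E16, a difference of 3.84. Its callosal values at E15, E18 and P1 were 55.2, 51.1 and 75.5, against 1.17, 2.91 and 1.67 in corticothalamic neurons, so the ranges of these types did not overlap, although subcerebral neurons held much of it as well. Tle4, a corepressor of the Groucho family, was at 194 FPKM in corticothalamic, 23 in subcerebral and 3.16 in callosal neurons at E16 (-5.55). At E15, E18 and P1 it was at 212, 192 and 198 in corticothalamic and 2.42, 2.31 and 1.87 in callosal neurons, again far apart at each stage. Ngfr, the p75 neurotrophin receptor, was at E16 nearly limited to the corticothalamic column, at 43.7 FPKM against 0.129 in callosal and 0.825 in subcerebral neurons (-5.31). Its corticothalamic values at the other stages were 41, 47.9 and 54.5, and no callosal value was above 0.294. In sorted cells measured in bulk, fewer cells of a type and less RNA per cell cannot be told apart.

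The stretch of 250 bases upstream of the transcription start is shown for Tle3 and Tle4, related corepressors that differed in opposite directions, and for Ngfr, to set the start regions of genes so unlike in level side by side. The sequences are those of RefSeq on build GRCm38.p6, read 5′ to 3′ on the gene's strand, with CpG dinucleotides in capitals. Tle3 is at chr9:61372116-61372365 on the plus strand, Tle4 at chr19:14598184-14598433 on the minus strand and Ngfr at chr11:95587699-95587948 on the minus strand. For Tle4 the most upstream of 2 starts was used.
Tle3: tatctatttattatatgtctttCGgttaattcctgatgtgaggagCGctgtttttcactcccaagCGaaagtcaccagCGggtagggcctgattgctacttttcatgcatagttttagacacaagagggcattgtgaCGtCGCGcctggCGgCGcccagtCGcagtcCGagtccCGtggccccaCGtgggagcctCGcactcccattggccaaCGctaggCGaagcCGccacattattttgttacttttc
Tle4: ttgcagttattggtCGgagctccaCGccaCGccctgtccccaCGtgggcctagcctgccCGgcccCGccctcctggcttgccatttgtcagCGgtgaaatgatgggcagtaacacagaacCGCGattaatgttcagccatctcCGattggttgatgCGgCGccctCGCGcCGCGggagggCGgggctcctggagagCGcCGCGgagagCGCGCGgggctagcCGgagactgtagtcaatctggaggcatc
Ngfr: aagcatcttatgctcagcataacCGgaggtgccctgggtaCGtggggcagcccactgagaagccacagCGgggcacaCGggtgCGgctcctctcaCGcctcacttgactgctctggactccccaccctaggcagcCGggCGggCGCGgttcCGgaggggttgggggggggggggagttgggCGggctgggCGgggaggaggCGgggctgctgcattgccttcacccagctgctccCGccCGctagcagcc
The Tle3 stretch holds 17 CpG and 52.4% G and C, that of Tle4 24 CpG and 65.2%, and that of Ngfr 16 CpG and 70.4%. All of them hold CpG pairs, and Tle4 has the most. The POU octamer ATGCAAAT, the T-box element TCACACCT and the E-box CATATG were looked for on both strands of the same 250 bases, and none of these letter strings is in the stretches shown. A promoter was at hand for 8186 of the 13200 compared entries. The octamer was in 3.4% of 265 promoters of entries at least 2-fold higher in callosal neurons, in 2.61% of 383 of those higher in corticothalamic neurons, in 1.44% of the compared entries and in 1.81% of all 27025 promoters. CATATG was in 4.15%, 2.87%, 1.88% and 3.98% of the same sets, and TCACACCT in 0.377%, 0.783%, 0.806% and 1.3%, which for the callosal set is 1 promoter. These shares describe letters in a window and carry no test.

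At E16, 450 entries (3.41% of those compared) were at least 2-fold higher in callosal and 641 (4.86%) at least 2-fold higher in corticothalamic neurons. With a pseudocount of 5 in place of 1 the counts were 209 and 291. Of the 450 and 641, 117 and 187 were at least 4-fold, and 8 and 24 at least 16-fold apart. The median difference over all 13200 entries was 0.027, so the bulk of the transcriptome was centred near no difference. Corticothalamic neurons thus had more of the differing entries at each of these sizes. The same 2-fold rule gave 449 and 714 entries at E15, 456 and 558 at E18, and 575 and 576 at P1. The excess on the corticothalamic side was therefore present at E15, E16 and E18 but not at P1, without a test.

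**Figure D1:**
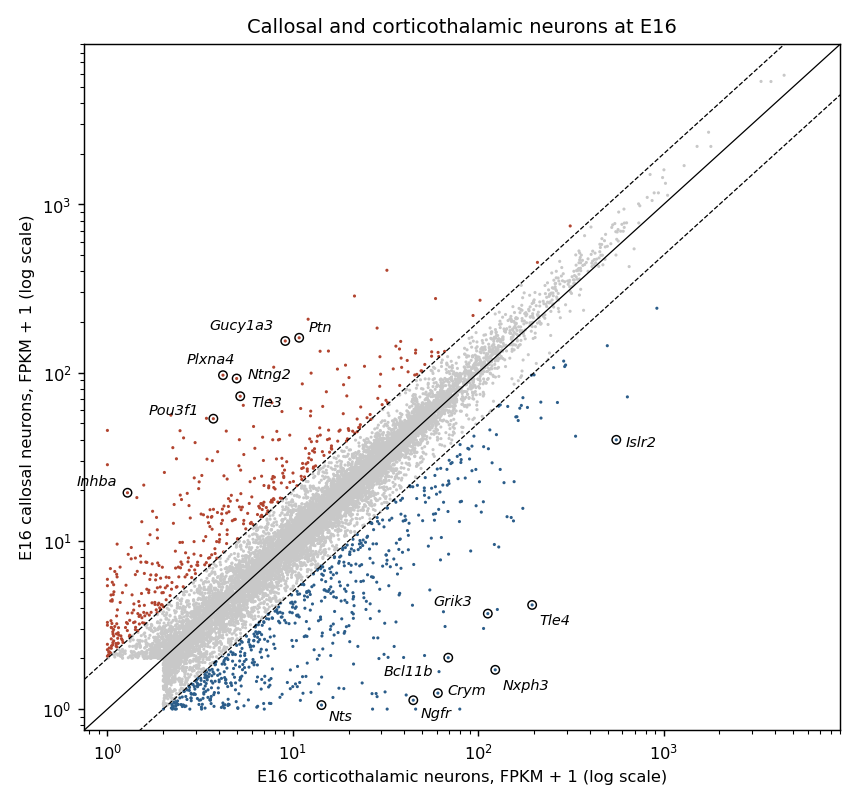
E16 levels of the 13200 compared entries, corticothalamic neurons on the x axis and callosal neurons on the y axis, both as FPKM + 1 on log scales. Each point is an entry, the solid line marks equal levels and the dashed lines a 2-fold difference. The 450 entries above the upper line are red, the 641 below the lower line are blue, and circles mark genes named in the text.

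Whether a difference seen at E16 was also present in columns that the E16 values did not enter was asked with a limma fit of callosal against corticothalamic neurons over E15, E18 and P1. Of 13946 entries fitted, 824 (5.91%) passed an adjusted p of 0.05 as higher in callosal and 1042 (7.47%) as higher in corticothalamic neurons. Of the 450 entries higher in callosal neurons at E16, 436 were in the fit and 285 (65.4%) passed in the same direction. Of the 641 higher in corticothalamic neurons, 638 were fitted and 423 (66.3%) passed in the same direction, and on both sides 0 passed in the opposite one. At least 2-fold differences in the same direction at all 4 stages were shown by 160 and 245 entries. The p-values of this fit reflect the evenness of a difference across the remaining 3 stages and hold no information on library spread. On the callosal and corticothalamic columns alone, without the subcerebral ones, 667 and 847 entries passed, 250 and 366 of them 2-fold the same way at E16, and 9130024F11Rik no longer did (limma adjusted p = 0.0571). The p-values lean on every stage: the counts of 285 and 423 became 38 and 58 without E18, 96 and 126 without P1, and 376 and 533 without E15. Of the genes given below with an adjusted p under 0.05, Plxna4, Lhx2, Gabra2, Slc17a6, Slc17a7 and Neurod1 did not pass the limma fit without E18 (adjusted p = 0.0898, 0.0601, 0.0527, 0.165, 0.053 and 0.103), and Slc17a6 and Neurod1 also not without P1 (0.111 and 0.0718). The others given with such a p passed whichever stage was left out. This does not hold for all genes named without a p. The markers Pou3f1 and Ngfr did not pass the limma fit without E18 (adjusted p = 0.0845 and 0.0691) or without P1 (0.114 and 0.0894). Neither did Ntng2, Gucy1a3, Fam19a2, Flrt3, Kif26b, Crym, Syt6 and Igfbp3. Nxph3 did not pass without P1, nor BC023483 without E18.

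Among the gene symbols with the largest callosal differences, Plxna4, a plexin that transmits semaphorin signals, was at 95.7 FPKM in callosal and 3.2 in corticothalamic neurons (4.52), and at 0.771 in subcerebral neurons. The plexin was highest in callosal neurons at every stage, with a difference that was 5.02 at E15, 3.40 at E18 and 2.45 at P1 (mean 3.62 ± 0.48 SE, limma adjusted p = 0.00715). Ntng2, netrin-G2, a membrane-anchored relative of the netrins, stood at 91.3 against 3.98 FPKM (4.21). Gucy1a3, a subunit of the soluble guanylate cyclase that makes cyclic GMP, stood at 153 against 8.11 FPKM (4.08). Fn1, the matrix protein fibronectin, was at 34.8 against 1.25 FPKM (3.99), and Flrt3, an adhesion protein that binds Unc5 receptors and latrophilins, at 39.95 against 1.58 (3.99). The callosal level of Flrt3 was 78.1 FPKM at E15 and 9.88 at P1, so that E16 lies between them. Fam19a2, a small secreted chemokine-like protein, had the reverse order over the stages, with 9.26 FPKM at E15, 52.5 at E16 and 87 at P1 in callosal neurons, while corticothalamic neurons stayed between 0.53 and 4.05.

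Inhba, whose product forms activin A, was at 18.3 FPKM in callosal and 0.283 in corticothalamic neurons at E16 (3.91), with callosal values of 9.95, 23.1 and 21.6 at E15, E18 and P1 against at most 0.767 in corticothalamic neurons. Ptn, the growth factor pleiotrophin, was at 160.3 against 9.83 FPKM (3.90), and its callosal level was 84.5 at E15, 262 at E18 and 416 at P1. Tle3 was at 71.4 against 4.21 FPKM (3.80), with subcerebral neurons at 30.2. In corticothalamic neurons it did not exceed 5.3 FPKM at any stage, whereas callosal neurons held between 60.5 and 89.4. The mean differences over the other stages were 3.73 ± 0.20 for Inhba, 3.80 ± 0.22 for Ptn and 3.96 ± 0.16 for Tle3 (± SE; limma adjusted p = 0.000544, 0.000636 and 0.000232). The kinesin-family gene Kif26b (20.5 against 0.571 FPKM, 3.77) and the less characterised BC023483 (54.9 against 1.2, 4.67) and 9130024F11Rik (107 against 6.89, 3.77) complete this group. It holds the 13 of the 15 leading callosal gene symbols, Pou3f1 among them, with a value above 0 on both sides. Kif26b and BC023483 had smaller differences at E15, 1.35 and 2.37, than at E16.

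Among the largest corticothalamic differences were a synaptic ligand, a hormone-binding protein, signalling factors and a glutamate receptor. Nxph3, neurexophilin 3, a secreted ligand of alpha-neurexins, was at 123 FPKM in corticothalamic and 0.712 in callosal neurons (-6.17). It stood at 156, 142 and 231 FPKM in corticothalamic neurons at E15, E18 and P1 and below 1 FPKM in callosal neurons throughout. Crym, the thyroid hormone binding protein mu-crystallin, was at 59.6 against 0.244 FPKM (-5.61). Its E16 corticothalamic value was the highest of that type's 4 stages (16.4 at E15, 23.7 at E18 and 35.5 at P1), and subcerebral neurons were at 42.6 at E16. Syt6, a synaptotagmin, was at 60.5 against 0.67 FPKM (-5.20) and Igfbp3, which binds insulin-like growth factors outside the cell, at 106 against 2.02 (-5.15). Gdf10, a TGF-beta family ligand, was at 39.9 against 0.213 FPKM (-5.08), a wider gap than at E15 (-2.87), E18 (-4.25) or P1 (-3.38).

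Bcl11b, the zinc finger factor Ctip2 of deep-layer neurons, was at 68 FPKM in corticothalamic and 1.02 in callosal neurons (-5.09), with the highest E16 level, 124, in subcerebral neurons. Callosal neurons held 6.94 FPKM of it at E15 and about 1 FPKM from E16 on. Grik3, a kainate-type glutamate receptor subunit, was at 112 against 2.7 FPKM (-4.93), and Podn, the matrix protein podocan, at 30.5 against 0.265 (-4.64). Kif26a stood at 126 FPKM in corticothalamic, 155 in subcerebral and 2.91 in callosal neurons (-5.02). The related Kif26a and Kif26b thus lay on opposite sides. Kif26a differed by -4.78 ± 0.10 SE over the other stages (limma adjusted p = 1.95e-05), and it passed the limma fit whichever of the 3 stages was left out.

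Of the 15 gene symbols with the largest E16 difference, 13 on the callosal and 11 on the corticothalamic side passed the limma fit over the other stages, and 4 and 6 passed whichever stage was left out. The remaining entries are small RNAs or unnamed transcripts that were listed at 0 in an E16 column, for which no fold is given. Snora41 and Snora15 were at 44.4 and 27.4 FPKM in callosal neurons and listed at 0 in corticothalamic neurons. Mir199b (78.6), AK182549 (45), Snora70 (31.3) and AK178082 (25.9 FPKM) were listed at 0 in callosal neurons. Some were unsteady across columns: Mir199b was listed at 0 in each of the other columns, and Snora41 was at 51.3 FPKM in corticothalamic and listed at 0 in callosal neurons at E18. Snora15 was steadier. Its mean difference over the other stages was 3.14 (limma adjusted p = 0.141), and 4.71 when P1 was left out (limma adjusted p = 0.00514). Of 869 compared loci known only by an assembly identifier, 42 were at least 2-fold higher in callosal and 56 in corticothalamic neurons. Over all 13200 compared entries these shares were 3.41% and 4.86%. XLOC_003544 (44.2 against 1.46 FPKM, 4.20) and XLOC_004056 (4.1) led on the callosal side, XLOC_004369 (7.53 against 0.175 FPKM, -2.86) and XLOC_004480 (-2.64) on the corticothalamic side.

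**Figure D2:**
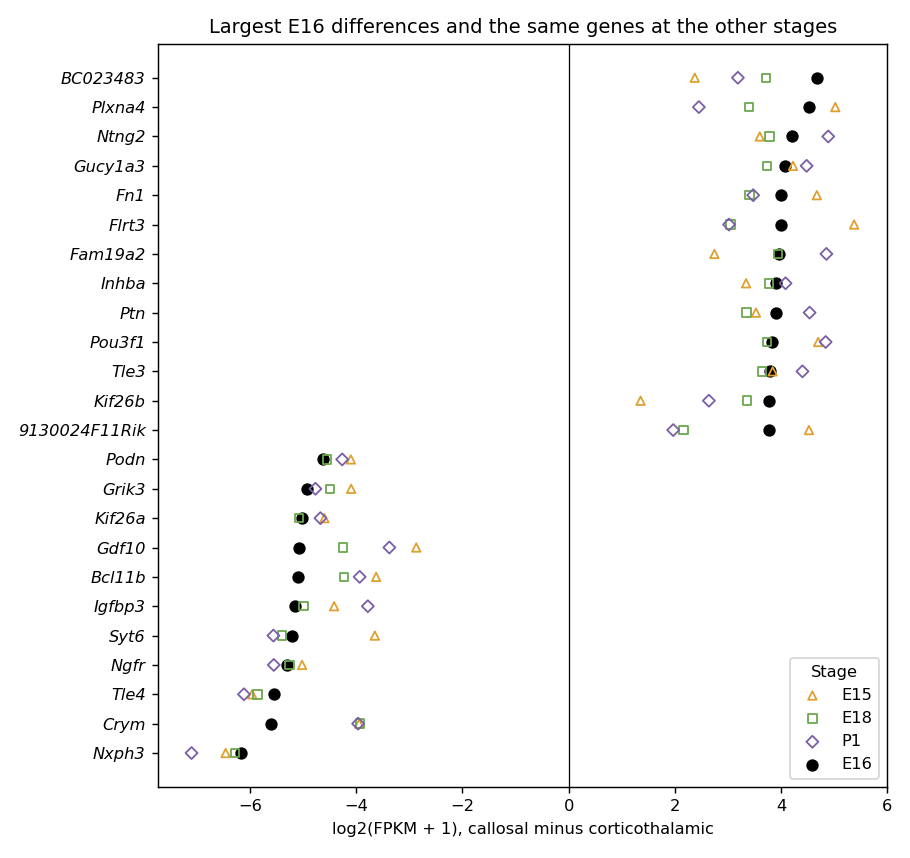
Callosal minus corticothalamic difference in log2(FPKM + 1) at E15, E16, E18 and P1 for the gene symbols with the largest E16 differences and values above 0 in both E16 columns. Filled points are E16 and open symbols the other stages, and each gene keeps its side at every stage, as Tle4 does (-5.96, -5.55, -5.86 and -6.12).

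The gene lists below are read against the 3.41% and 4.86% of all compared entries that were 2-fold apart and the 5.91% and 7.47% that passed the limma fit, which also takes in a few list members below the E16 filter. Members below 1 FPKM in one type entered only through the other, so the counts describe the lists and test nothing.

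Transcription factors and their cofactors differed on both sides. Of 53 compared, 18 were at least 2-fold higher in callosal and 12 in corticothalamic neurons, with a median of 0.16. Over the other stages, 16 passed the limma fit as higher in callosal and 12 as higher in corticothalamic neurons. The zinc finger repressor Bcl6 was at 29.8 against 1.36 FPKM (3.71). The upper-layer homeobox genes Cux1 (67.9 against 6.53 FPKM), Cux2 (65.2 against 6.71) and Lhx2 (133 against 14.6) differed by 3.19, 3.10 and 3.11. All of them passed the limma fit over the other stages, with adjusted p of 0.00153, 0.000544 and 0.00375.

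The POU factors related to Pou3f1 were on its side, Pou3f2 at 40.3 against 5.87 FPKM (2.59) and Pou3f3 at 143 against 35 (2.00). The Groucho family was divided. Tle1 (22.3 against 3.43 FPKM, 2.40) and Tle3 were on the callosal side and Tle4 on the other, while Tle2 (24.5 against 14.6, -0.71) did not reach 2-fold. Bhlhe22, a basic helix-loop-helix factor, was at 104 FPKM in callosal and 16.4 in corticothalamic neurons (2.59), yet was highest in subcerebral neurons at 267.

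On the corticothalamic side, Zfpm2, a cofactor of GATA factors, was at 50.4 against 1.08 FPKM (-4.63) and the forkhead factor Foxp2 at 30.1 against 1.12 (-3.88). Sox5, which orders the fates of deep-layer neurons, was at 103 against 13.8 FPKM (-2.81), and the LIM-only gene Lmo3 at 62.3 against 9.48 (-2.60). These factors were also present in subcerebral neurons, with Lmo3 higher there (75.5 FPKM). The Lmo3 difference had the other sign after E16, 0.46 at E18 and 0.97 at P1, and did not pass the limma fit over the other stages (adjusted p = 0.586). Tbr1, which specifies layer VI neurons, was well expressed in callosal neurons as well, at 65.8 FPKM beside 217 in corticothalamic neurons (-1.70), and its mean over the other stages was -1.66 ± 0.58 SE (limma adjusted p = 0.108). Fezf2, known for subcerebral identity, was at 28.1 in callosal, 118 in corticothalamic and 187 FPKM in subcerebral neurons (-2.03). The nuclear factor I genes Nfia (57.9 against 13.5 FPKM, -2.02) and Nfib (267 against 65.5, -2.01) were both higher in corticothalamic neurons.

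**Figure D3:**
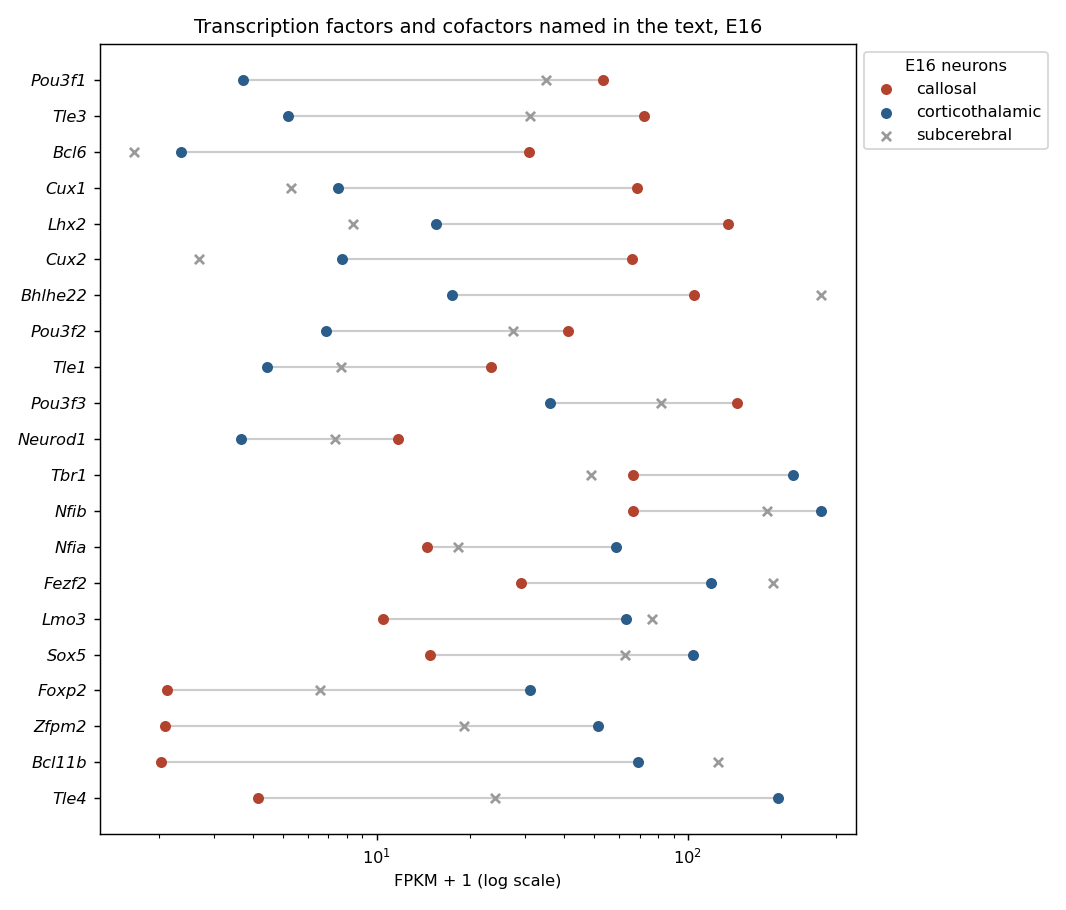
E16 levels, as FPKM + 1 on a log scale, of the transcription factor and cofactor genes named in the text that were at least 2-fold apart, ordered by difference. Red and blue points are the callosal and corticothalamic values joined by a line, and grey crosses are subcerebral neurons. These crosses lie beyond the callosal point for Bhlhe22 (267 FPKM). They lie beyond the corticothalamic point for genes that include Bcl11b (124 FPKM), Fezf2 and Lmo3.

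The list of genes known for callosal neurons, 27 of them compared, had 20 at least 2-fold higher in callosal neurons, a median of 2.16, and 15 that passed the limma fit as higher there over the other stages. The 2 members at least 2-fold higher in corticothalamic neurons at E16 were Lpl, lipoprotein lipase (59.2 against 25.8 FPKM, -1.17), and the semaphorin receptor Plxnd1 (6.42 against 2.68, -1.01). Both stood on the callosal side at P1, with 1.22 and 2.95. Of 16 genes known for corticothalamic neurons, 15 were at least 2-fold higher in these, with a median of -4.25, and 14 passed the limma fit in that direction. The exception at E16, the neurotensin receptor Ntsr1, was at 94.3 against 52.7 FPKM (-0.83). Ppp1r1b, encoding the dopamine-regulated phosphatase inhibitor DARPP-32, was at 142 against 12.9 FPKM (-3.36), and Rprm, reprimo, at 334 against 40.9 with 391 FPKM in subcerebral neurons (-3.00). Earlier descriptions of these neuron types stand behind both lists, so their sides are no independent evidence.

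Subplate neurons lie directly below layer VI and share genes with it. Of 12 listed subplate genes, 7 were compared, 3 of which were at least 2-fold higher in corticothalamic neurons and 0 in callosal neurons, and over the other stages 4 of 9 fitted passed the limma test on the corticothalamic side. The 3 at E16 were the dopamine receptor Drd1a (15.5 against 0.173 FPKM, -3.81), the neurexophilin Nxph4 (35 against 2.3, -3.45) and the potassium channel subunit Kcnab1 (13.4 against 1.72, -2.40). The subplate list summed to 109 FPKM in corticothalamic and 35.9 in callosal neurons, and its part in the corticothalamic differences was not tested. Among genes known for subcerebral neurons, 6 of 14 compared were at least 2-fold higher in corticothalamic and 2 in callosal neurons. Besides Bcl11b and Fezf2, the regulator of G-protein signalling Rgs4 (16.7 against 0.331 FPKM, -3.74) and the calmodulin-binding Pcp4 (21.4 against 1.36, -3.25) were on the corticothalamic side.

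Receptors and ligands that steer axons were divided between the types. In the netrin and slit pathway, 5 of 15 compared genes were at least 2-fold higher in callosal and 2 in corticothalamic neurons, and 5 and 3 passed the limma fit over the other stages. The 5 on the callosal side were receptors: the netrin receptors Unc5c (8.65 against 0.656 FPKM, 2.54), Neo1 (92.5 against 19.1, 2.22) and Dcc (14.7 against 5.62, 1.25), and the slit receptors Robo2 (83.8 against 17.8, 2.17) and Robo1 (46 against 13, 1.75). The 2 on the corticothalamic side were the ligands Slit1 (68.2 against 7.34 FPKM, -3.05) and Ntn4 (5.8 against 0.502, -2.18). The other 8 did not reach 2-fold, among them the receptors Unc5a (22.1 against 18.8 FPKM), Unc5d and Dscam and the ligand Ntn3. The Robo2 difference was 3.94 at E15 and 0.54 at E18, and it did not pass the limma fit over the other stages (adjusted p = 0.23).

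Semaphorins, plexins and neuropilins had 3 of 27 compared members at least 2-fold higher in callosal and 4 in corticothalamic neurons, with 4 and 3 passing the limma fit. Beside Plxna4, callosal neurons had more of the co-receptor Nrp1 (41.5 against 8.63 FPKM, 2.14) and of its ligand Sema3a (8.79 against 1.46, 1.99). The Nrp1 difference was 3.06 at E15, 0.69 at E18 and -0.48 at P1 (limma adjusted p = 0.276). The transmembrane Sema6a, which was at 15 against 1.08 FPKM (-2.94), and the secreted Sema3e (2.37 against 0.371, -1.30) were on the corticothalamic side.

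Ephrins and Eph receptors signal in both directions between touching cells. Of 18 compared, 5 were at least 2-fold higher in callosal and 2 in corticothalamic neurons, and 7 and 2 passed the limma fit. Efnb2, an ephrin-B ligand, was at 152 against 37.2 FPKM (2.01), and its difference lay between 1.54 and 2.16 at the other stages (limma adjusted p = 0.00101). The receptors Epha3 (29.98 against 7.73 FPKM, 1.83) and Ephb2 (38.1 against 12.5, 1.53) were on the same side. Ephb1, a receptor for ephrin-B ligands, was on the other, at 90.1 against 7.71 FPKM (-3.39; limma adjusted p over the other stages = 0.000544). Efna5 was also higher in corticothalamic neurons (6.89 against 1.43 FPKM, -1.70), though highest in subcerebral neurons at 17.4.

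Cadherins and protocadherins, the calcium-dependent adhesion proteins, were divided gene by gene, 5 of 21 compared on the callosal and 4 on the corticothalamic side. Pcdh8 (46.9 against 5.14 FPKM, 2.96), Cdh12 (8.14 against 0.345, 2.76), Cdh8 (25.3 against 4.23, 2.33) and Cdh10 (39.1 against 7.48, 2.24) were higher in callosal neurons. Cdh9 (3.95 against 0.108 FPKM, -2.16) and Cdh11 (49.2 against 12.2, -1.93) were higher in corticothalamic neurons. Over the other stages 3 passed the limma fit on the callosal and 6 on the corticothalamic side. Among 45 other adhesion and synaptic organizer genes, 7 were at least 2-fold higher in callosal and 8 in corticothalamic neurons. Beside Nxph3 and Nxph4, corticothalamic neurons had more Lrrtm4, a postsynaptic leucine-rich organizer (25.8 against 0.236 FPKM, -4.44), whereas Mdga1, which binds neuroligins, was at 71.8 in callosal against 18.6 FPKM (1.90). Islr2, an axonal membrane protein with leucine-rich repeats, had the highest corticothalamic level of the genes named here, 555 FPKM, with 472 in subcerebral and 38.9 in callosal neurons (-3.80). Its difference was -4.22 at E15, -5.02 at E18 and -5.47 at P1 (limma adjusted p = 0.000278).

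Secreted factors and neuropeptides had 7 of 24 compared genes on the callosal and 5 on the corticothalamic side, and 5 and 4 passed the limma fit over the other stages. Beside Ptn, Inhba and Fam19a2, the callosal side held the pleiotrophin relative midkine, Mdk (34.3 against 12.1 FPKM, 1.43), the activin B gene Inhbb (12.7 against 1.8, 2.29) and the neurotrophin Ntf3 (12.8 against 0.84, 2.91). The corticothalamic side held, beside Igfbp3 and Gdf10, the BMP family gene Bmp3 (3.49 against 0.0692 FPKM, -2.07) and Wnt7b (217 against 52.7, -2.02). Ptprz1, a receptor phosphatase for pleiotrophin and midkine, was on the side of these ligands (156 against 54.8 FPKM, 1.49; limma adjusted p over the other stages = 0.0611). Ntrk3, the receptor of the Ntf3 product, was on the opposite side from its ligand, at 71.4 against 28.2 FPKM (-1.31). Of 25 growth factor and hormone receptors compared, 3 were at least 2-fold higher in callosal and 5 in corticothalamic neurons, and 1 and 3 passed the limma fit. Beside Ngfr, these included the natriuretic peptide clearance receptor Npr3 (22.7 against 0.43 FPKM, -4.05) and the stem cell factor receptor Kit (35.7 against 5.35, -2.53). Kit had a difference of -4.14 at E15 and -0.17 at P1.

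Of 18 glutamate receptor genes compared, 7 were at least 2-fold higher in corticothalamic and 2 in callosal neurons, with a median of -0.40, and 3 and 2 passed the limma fit over the other stages. The AMPA receptor subunits Gria3 (36.5 against 3.77 FPKM, -2.97) and Gria1 (15.5 against 5.29, -1.39) were higher in corticothalamic neurons, while Gria2 did not reach 2-fold, at 246 in callosal against 153 FPKM (0.68). The metabotropic receptors Grm3 (19.3 against 1.52 FPKM, -3.01) and Grm5 (18.4 against 4.01, -1.95) were on the same side. Grm2, which shares the inhibitory G-protein coupling of Grm3, was on the callosal side at 37.4 against 1.97 FPKM (3.69), with a mean over the other stages of 3.21 ± 0.19 SE (limma adjusted p = 0.000636). The Grm5 difference was -2.11 at E15 but 0.11 at E18 and 0.45 at P1.

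Among 16 GABA and glycine receptor and chloride transporter genes compared, 1 was at least 2-fold higher in callosal and 4 in corticothalamic neurons. The GABA-A subunits took different sides. Gabra2 was at 32.9 FPKM in callosal and 2.93 in corticothalamic neurons (3.11; limma adjusted p over the other stages = 0.00257), and Gabra3 at 4.73 and 22.3 (-2.02). Glra2, a glycine receptor subunit, was at 20.9 against 6.28 FPKM (-1.59). Slc12a5, the chloride extruder that makes GABA inhibitory as neurons mature, was at 7.51 against 2.26 FPKM (-1.38).

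Of 40 potassium channel genes compared, 5 were at least 2-fold higher in callosal and 9 in corticothalamic neurons, and 3 and 9 passed the limma fit over the other stages. The channel-interacting protein Kcnip2 (27.8 against 1.65 FPKM, -3.44), the leak channel Kcnk1 (18.1 against 1.89, -2.72) and the delayed rectifier Kcna6 (23.8 against 2.91, -2.67) led on the corticothalamic side. The inward rectifier Kcnj2 was nearly limited to callosal neurons at E16, at 8.57 against 0.128 FPKM and 0.0312 in subcerebral neurons (3.08), although its difference at E15 was 0.45. Sodium, calcium and HCN channels had 2 of 27 compared on the callosal side, the calcium channel subunits Cacna2d1 (60.3 against 10.03 FPKM, 2.47) and Cacng2 (8.8 against 1.54, 1.95). The 4 on the corticothalamic side included Cacna1e (40.6 against 10.5 FPKM, -1.85).

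Synaptic vesicle and release genes were even, with 4 of 34 compared on each side, and 2 passed the limma fit on the callosal and 8 on the corticothalamic side. The vesicular glutamate transporters were opposed. Slc17a6 (VGLUT2) was at 11.7 FPKM in callosal and 1.27 in corticothalamic neurons (2.49), and Slc17a7 (VGLUT1) at 19.6 and 55.1 (-1.45), and both passed the limma fit over the other stages (adjusted p = 0.0167 and 0.00157). Synaptotagmins were opposed too, since Syt4 was at 285 in callosal against 20.5 FPKM (3.73) while Syt6 was the reverse. Snap25, a core protein of vesicle fusion, was at 161 in corticothalamic against 53.7 FPKM (-1.56).

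Genes of cyclic nucleotide and G-protein signalling had 5 of 23 compared on the callosal and 8 on the corticothalamic side, and 4 and 7 passed the limma fit. Of the soluble guanylate cyclase subunits, Gucy1b3 was on the callosal side at 62 against 13.5 FPKM (2.12) beside Gucy1a3, while Gucy1a2 was low and even, at 2.05 FPKM in callosal and 2.06 in corticothalamic neurons. The calcium-stimulated adenylate cyclase Adcy1 was on the corticothalamic side at 128 against 8.2 FPKM (-3.81). The phosphodiesterase Pde2a, which degrades cyclic nucleotides, was also higher there (57.1 against 12.3 FPKM, -2.13), as were Rgs4 and Rgs8 (19.9 against 2.76, -2.47).

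Cholesterol synthesis genes were centred on the callosal side. Of 22 compared, 5 were at least 2-fold higher in callosal and 0 in corticothalamic neurons, with a median of 0.74 against 0.027 over all entries, and 5 passed the limma fit as higher in callosal neurons over the other stages. With a pseudocount of 5, 1 member was 2-fold apart. Members 2-fold apart included Hmgcs1 (5.27 against 0.713 FPKM, 1.87), Sc4mol (45.5 against 18.9, 1.22), Cyp51 (53 against 24.2, 1.10) and Mvd (26.9 against 12.3, 1.07). The lowest member was Ebp, at -0.064. Subcerebral neurons were above the callosal level of Sc4mol (61.4 FPKM) and Mvd (46.1).

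Of 29 migration and early differentiation genes compared, 4 were at least 2-fold higher in callosal neurons and 1, Islr2, in corticothalamic neurons. Beside Flrt3 and Nrp1, the basic helix-loop-helix gene Neurod1 was at 10.7 against 2.67 FPKM (1.68; limma adjusted p over the other stages = 0.00869). Immediate early genes, which respond to neuronal activity, had 3 of 11 compared on the corticothalamic side and 0 on the callosal side, and 0 passed the limma fit in either direction. They were Fosl2 (17.4 against 2.44 FPKM, -2.42), Nr4a3 (46.7 against 13.2, -1.75) and Junb (9.29 against 3.33, -1.25).

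**Figure D4:**
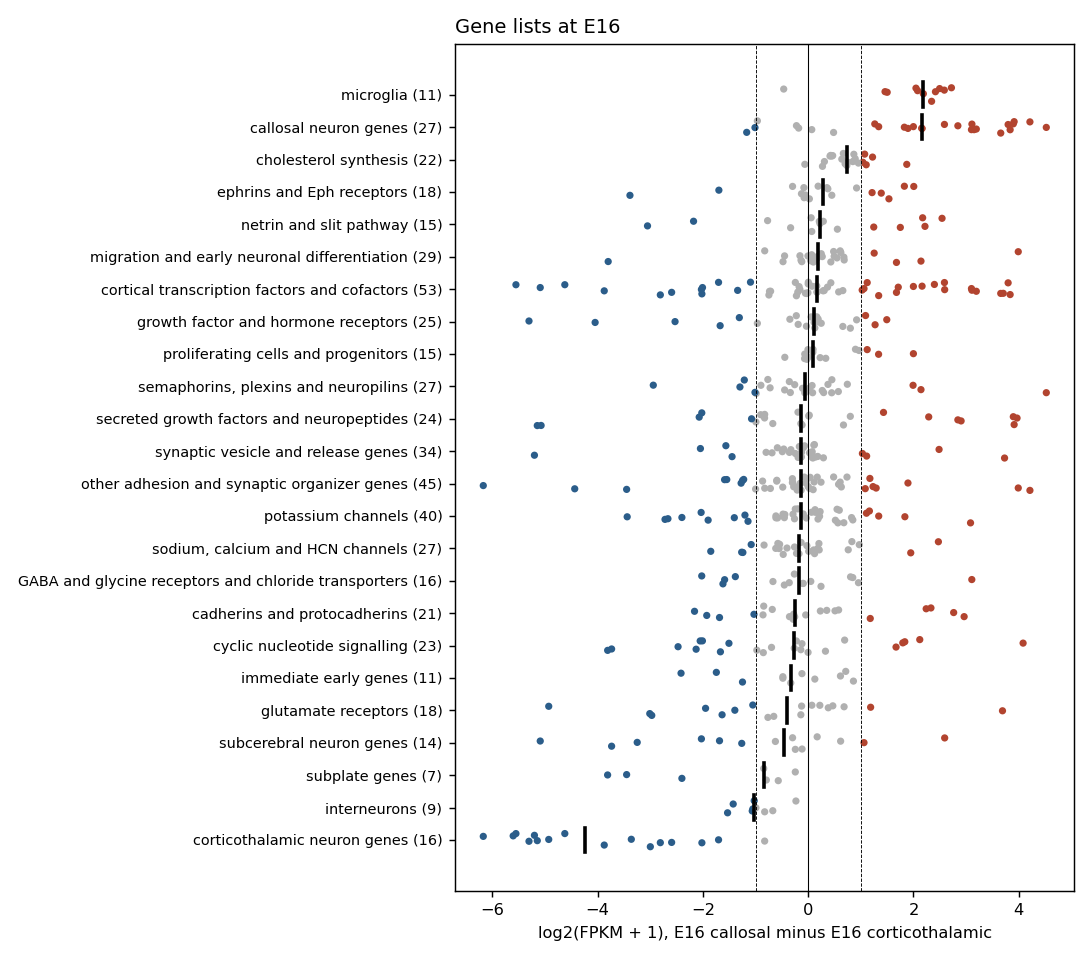
Callosal minus corticothalamic difference in log2(FPKM + 1) at E16 for the compared members of each gene list with at least 7 compared, with the median of each list marked. The callosal and corticothalamic neuron lists lie apart, with medians of 2.16 and -4.25, and microglia genes (2.19) lie as far to the callosal side as the callosal list. Cholesterol synthesis (0.74), subplate (-0.85) and interneuron (-1.03) genes lie apart to a lesser extent. The other lists drawn have medians between -0.46 and 0.27.

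Whether E16 differed from the other stages was asked by setting the E16 difference against its mean over E15, E18 and P1 in the same limma fit. Of 13946 entries 0 (0%) passed, 86 were at an unadjusted p under 0.05, and the smallest adjusted p was 0.295. Without E15, 11 passed. With so few stages this does not show that the differences stayed alike. The 20 gene symbols with the largest deviations had 11 small RNAs or AK transcripts among them, and 8 were listed at 0 in an E16 column. Nts, the neuropeptide neurotensin, was at 13.3 FPKM in corticothalamic, 9.01 in subcerebral and 0.0564 in callosal neurons at E16, and did not exceed 0.749 FPKM in any group at the other stages. Its difference of -3.76 thus stood against -0.016, -0.26 and -0.63 (limma unadjusted p = 2.12e-05, adjusted p = 0.295). Ptk2b, a calcium-activated tyrosine kinase, was at 31.7 against 1.03 FPKM (-4.01), the widest gap of its 4 stages, since callosal neurons reached 11.4 at E18 and 40.01 at P1.

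Others stood on the other side, or close to even, after E16. Fosl2, a partner of Jun proteins, was at 15.5 and 17.4 FPKM in corticothalamic neurons at E15 and E16 and 3.45 and 2.55 at E18 and P1, while callosal neurons stood at 1.23, 2.44, 10.6 and 12.4. Plxnd1 did likewise, with differences of -1.90, -1.01, 2.41 and 2.95 from E15 to P1. For these genes the higher type at E16 was the lower one at E18 and P1. Dkk3, a secreted glycoprotein of the Dickkopf family, was at 21.4 against 2.13 FPKM at E16 (2.84) and at 19.9 against 19.4 at E18. Ntf3 was at 1.64 against 1.65 FPKM at E15 and 12.8 against 0.84 at E16, the largest of its differences. Hmgcs1 was 2-fold apart only at E16, with differences of 0.15 at E15, -0.12 at E18 and 0.45 at P1. None of these deviations passed after adjustment, and anything particular to the E16 libraries cannot be told apart from the stage.

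Markers of other cell types showed 2 patterns. Microglia genes were higher in the callosal column, with 10 of 11 at least 2-fold higher, a median of 2.19, and a sum of 46.3 FPKM against 9.06 in corticothalamic and 7.48 in subcerebral neurons. All 11 were at 1 FPKM or more in callosal neurons and 1 was in corticothalamic neurons, so 10 entered the comparison through the callosal column. With a pseudocount of 5, 3 were 2-fold apart. The exception, Aif1, was at 5.76 FPKM in callosal and 8.34 in corticothalamic neurons. Without it, the other 10 summed to 40.5 FPKM in callosal and 0.722 in corticothalamic neurons, with single genes between 1.97 for Fcer1g and 5.84 for the complement gene C1qa in callosal neurons, and at most 0.122 for Csf1r in corticothalamic neurons. Defining microglial genes such as Cx3cr1 (3.38 FPKM) and P2ry12 (3.77) were thus present in the callosal column and near 0 in the corticothalamic one. At E15, E18 and P1 the sums without Aif1 were 3.71, 18.6 and 18.5 FPKM in callosal and 0.409, 1.2 and 0.512 in corticothalamic neurons, and 8 of the list passed the limma fit as higher in callosal neurons. The callosal E16 sum was the highest of the 12 columns, and its part in the other callosal differences was not tested.

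Of 14 interneuron markers, 9 were at 1 FPKM or more in corticothalamic and 2 in callosal neurons at E16. The 5 that were 2-fold apart were all higher in corticothalamic neurons. Most compared members entered only through that column, so the share of 5 among the 9 compared and the list median depend on the filter. Over all members except Npy, which was at 238 and 119 FPKM, the list summed to 22.9 FPKM in corticothalamic and 5.98 in callosal neurons. Lhx6 (3.91 against 0.828 FPKM) and Dlx1 (6.32 against 1.53), transcription factors of the interneuron lineage, were among them. At E15 the order was the reverse, with 81.4 FPKM in callosal and 11.03 in corticothalamic neurons. With Npy included, the E15 sums were close, at 97 and 92.5 FPKM. The order at E18 and P1 was that of E16, at 19.4 and 33.8 FPKM in corticothalamic against 3.82 and 4.5 in callosal neurons without Npy. Of the list, 0 passed the limma fit over the other stages. Reln, made by Cajal-Retzius cells and some interneurons, was also higher in corticothalamic neurons at E16, at 5.98 against 2.31 FPKM (-1.08), and in callosal neurons at E15 (1.78). Progenitor and dividing-cell genes had 3 of 15 compared at least 2-fold higher in callosal neurons, among them Slc1a3, a glutamate transporter of radial glia (12.9 against 2.47 FPKM, 2.00), and Insm1 (24.3 against 9.02, 1.34), and summed to 151 against 107 FPKM. Vascular and astrocyte or oligodendrocyte lineage genes had 0 members 2-fold apart, of 3 and 2 compared, and red blood cell genes 0 of 1. The part of these markers in the results above was not tested.

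**Figure D5:**
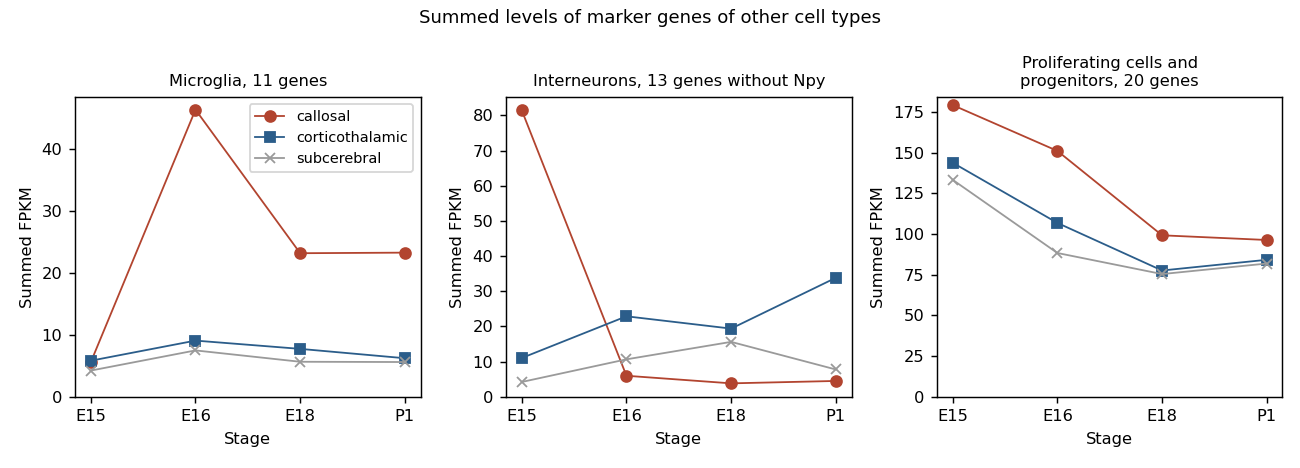
Summed FPKM of marker lists of other cell types in callosal (red), corticothalamic (blue) and subcerebral (grey) neurons at each stage, with 1 pooled value per point. The callosal microglia sum is highest at E16 (46.3 FPKM against 9.06). The interneuron sum without Npy is higher in callosal neurons at E15 (81.4 against 11.03 FPKM). At E16 (22.9 against 5.98 FPKM), E18 and P1 it is higher in corticothalamic neurons.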

How the data were processed

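Per the submitters' processing notes, the reads were processed with TopHat2 and Cufflinks against the mouse build mm9. The sources used here name no versions, annotation, strand setting or scaling, and do not say how the values of 2 libraries were pooled. Integrity numbers of the RNA ran from 6.3 to 9, per the labels' protocols. The deposited table holds 32310 entries in 12 columns, 1 per stage and neuron type, and its values were read as FPKM, inferred from the authors' use of Cufflinks since the header names no unit. FPKM keeps no read counts, so the depth and counting error behind each value are unknown. Column sums ran from 355965 to 473871 FPKM, with 384824 for E16 callosal and 355965 for E16 corticothalamic neurons.

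Values were taken as log2(FPKM + 1), with a pseudocount of 1. Called at E16 means at least 2-fold apart among entries at 1 or more in either column, with no test. Other stages were tested with limma-trend (limma 3.58.1 in R 4.3.3, statmod 1.5.0, robust moderation) over the 12 columns, for entries at 1 or more in at least 2 columns, with terms for stage, type and type at E16, 4 residual degrees of freedom (3 were planned for) and Benjamini-Hochberg adjusted p-values with a threshold of 0.05. The E16 columns have their own terms and do not enter the difference over E15, E18 and P1. On simulated data over 13946 entries the fit recovered 91 of 100 entries changed 2-fold and 92 of 100 changed 4-fold. The recovery is given by fold only and not by expression level, so it cannot be read as the recovery of entries with low values. Calls among unchanged entries are not given here, nor is recovery of differences that are uneven across the stages. If the libraries are technical replicates, even the pooled values describe single collections.

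Members and the 28 gene lists were chosen with earlier results of these data known. Of 618 listed names 612 were matched, 3 by an older symbol. Named are the 15 gene symbols with the largest E16 difference in each direction, the markers, up to 6 members with the largest difference per list, the 10 largest deviations of E16 in each direction and 2 assembly loci in each direction. Other members named, such as exceptions and even ones, were chosen after their values were seen. Alternatives were other pseudocounts, filters, scalings and fits, and leaving out a stage. Tables were handled with Python 3.11.15, numpy 2.4.6 and pandas 2.3.3, and plots with matplotlib 3.10.9. Some list members are counted but not reported here by name.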

Additional observations from a re-analysis of the deposited data

How the results depend on the processing

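The E16 counts of 450 and 641 entries became 209 and 291 with a pseudocount of 5. They stayed within 1.5 times with a pseudocount of 0.1, a filter at 5, median-ratio scaling, quantile normalization or no assembly loci. The same held, chosen after seeing the data, among entries above 0 in both columns. Leaving out the filter is no check on these counts or on those per gene list, since a 2-fold difference on this scale needs a value of at least 1. The share on the callosal side was between 39.3% and 44.2%. The limma counts over the other stages, 824 and 1042, became 1938 and 2030 when E15 was left out, 40 and 61 when E18 was, and 102 and 139 when P1 was. The cause was not tested. For the deviation of E16, 1 entry passed with a pseudocount of 5, 1 without a filter and 11 without E15, against 0. The E16 values of named genes were within 1.5 times in 189 of 234 recomputations and moved further in 45, and 0 changed sign. Settings that only drop or add entries cannot change these values and are among the 189. Over the other stages 289 of 319 recomputations kept their side of the threshold, 27 lost it, 1 gained it and the rest changed sign, with AK178082 at 0.19 without P1 and Snora70 at 0.43 without E18. All losses but those of Flrt3 and 9130024F11Rik under other settings (limma adjusted p = 0.0507 and 0.0571) came from dropping E18 or P1. Of the 13 callosal and 11 corticothalamic leading symbols that passed, only 4 and 6 stayed under the threshold in every fit with a stage dropped. The 289 therefore do not describe how the p-values held against dropping a stage. Of the list counts 35 of 448 moved by over 1.5 times, and of the list medians 14 of 208. No paired analysis was possible because each group has 1 pooled value and no column carries a replicate number. Depth is unknown, so no counting interval can be given for any entry.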
